A study of Mus musculus with 2 samples.

Results

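Lymphatic endothelial cells (LECs) of the mouse abdominal aorta were studied in single-cell RNA sequencing of 2 libraries, of which 1 came from mice that received saline (Control) and 1 from mice on angiotensin II and a high-salt drink (AngII+HS). The cells were chosen by their counts: at least 4 unique molecular identifiers (UMIs, tags that count RNA molecules) of *Prox1*, *Mmrn1* and *Reln* together, at least 1 UMI of *Flt4*, *Pecam1* or *Cdh5*, and low limits on macrophage, leukocyte, fibroblast and smooth muscle UMIs. This gave 303 LECs among 35848 cells that passed the cell filter, 113 in the Control and 190 in the AngII+HS library. According to the methods of the study, the mice were 5-month-old C57BL/6J males. The AngII+HS mice received 1500 ng/kg/min of AngII for 28 days with 0.9% NaCl and 0.2% KCl to drink, and the Control mice received saline. Each library pooled tissue, from 5 mice by the series design and from 1 Control mouse or 2 AngII+HS mice by the protocol in the labels, so the number of mice behind a library is uncertain.

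Lymphatic vessels drain fluid, fats and immune cells from tissues. In the aorta they run in the outer layer of the wall. PROX1 is the transcription factor that gives and keeps lymphatic identity, and VEGFR-3, encoded by *Flt4*, is the receptor through which VEGF-C drives lymphatic growth. Initial lymphatic capillaries carry LYVE1, a hyaluronan receptor, and secrete CCL21, which draws dendritic cells and T cells that bear CCR7. Collecting vessels hold less of both and have valves.

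The Control matrix had 11448 barcodes and 86618995 UMIs, at a median of 7487 per barcode. The AngII+HS matrix had 24804 barcodes and 117146856 UMIs, at a median of 3506. Summed over LECs, the depth was 973263 UMIs for Control and 1058691 for AngII+HS, and the median LEC had 6641 or 4598.5 UMIs. Blood endothelial cells, chosen by *Pecam1* and *Cdh5* with at most 1 lymphatic UMI, numbered 672 and 1185, with medians of 4611.5 and 4499 UMIs. The Control LECs were thus the deeper group, while the blood endothelial cells were of like depth in both libraries. Mitochondrial genes made up a median of 1.81% of the UMIs of a Control LEC and 1.05% of those of an AngII+HS LEC. The deposited lists shared 67 cell barcodes. The barcode list recorded with each library was as long as the other library's matrix, and whether the matrices were exchanged was not tested. Smooth muscle cells, gated in the same way, were 51.0% of the cells in the matrix recorded as Control and 4.03% in the one recorded as AngII+HS. Neutrophils were 0.78% and 5.37% of these cells. Every direction below rests on the matrices as recorded.

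With 1 library per condition there was no test between conditions. Intervals are 95% intervals for counting error only, and cells were not taken as replicates. Levels are given as CPM, the UMIs of a gene for every 1000000 UMIs summed over a group of cells. The log2 ratio divides the AngII+HS level by the Control level after adding 0.5 UMIs to each count. A gene was called higher or lower when it passed 2-fold, which describes these libraries alone. A gene is described as being at the free-RNA level when its mean UMIs per LEC, in the library where it was higher, were less than 3 times the lowest mean among 6 other gated classes, since RNA released from broken cells gives UMIs to all cells.

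The median LEC had 19 UMIs of *Prox1*, *Mmrn1* and *Reln* in the Control and 15 in the AngII+HS library. Just inside the threshold, with 4 such UMIs, were 4 Control and 12 AngII+HS cells. Of these, 0 and 4 had a *Flt4* UMI, 0 and 1 a *Ccl21a* UMI, and 1 and 3 a *Lyve1* UMI. Just outside it, with 3 UMIs, were 13 and 15 cells, of which 2 and 1 had a *Ccl21a* UMI. These values chose the cells and carry no test. LECs with at most 10 such UMIs numbered 35 and 60. Several results that rest on them are given below also for the 78 Control and 130 AngII+HS LECs with at least 11, a threshold set after the data were seen.

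LECs were 1.0% of the Control cells (0.826% to 1.20%) and 0.774% of the AngII+HS cells (0.668% to 0.891%). Among endothelial cells their share was 14.4% for Control (12% to 17%) and 13.8% for AngII+HS (12% to 15.8%). The intervals of the libraries overlapped for both shares. Other classes had larger shares in the AngII+HS library, with macrophages at 3.12% and 9.50%, B cells at 0.576% and 3.51%, and T cells at 0.753% and 3.30% of the Control and AngII+HS cells. A change in the number of LECs cannot be told apart from a change in the other cells of the pool.

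Markers that the gate did not use had lymphatic levels in the chosen cells. *Lyve1* stood at 1255 CPM in Control and 1592 CPM in AngII+HS LECs, against 4.12 and 5.49 CPM in blood endothelial cells. *Ccl21a*, the CCR7 ligand, stood at 3523 and 6660 CPM in LECs and at 0.823 and 31.3 CPM in blood endothelial cells. Near-identical copies of this gene share reads, so the level of *Ccl21a* itself is uncertain. *Pdpn*, which encodes podoplanin, a surface glycoprotein that binds CLEC-2 on platelets, stood at 257 and 362 CPM in LECs and at 0.823 and 17.4 CPM in blood endothelial cells. Summed over all LECs, these markers were not in conflict with the label. The 4 venous genes *Selp*, *Lrg1*, *Ackr1* and *Sele* summed to 1771 and 1191 CPM in LECs and to 1576 and 2178 CPM in blood endothelial cells. Some Control LECs near the threshold had gate UMIs of *Prox1* alone and many *Selp* UMIs, as given below. The summed markers thus do not settle the label of each cell. Macrophages carried *Lyve1* too, at 703 CPM in the Control and 48.0 CPM in the AngII+HS library, and fibroblasts carried *Pdpn*. The gate genes are given as a description. *Prox1* stood at 921 and 839 CPM, *Mmrn1*, encoding an extracellular matrix protein, at 2060 and 1798 CPM, *Reln*, encoding the secreted protein reelin, at 1002 and 827 CPM, and *Flt4* at 475 and 527 CPM in Control and AngII+HS LECs.

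With each cell thinned to 2000 UMIs, *Lyve1* was seen in 42.2% of Control LECs (32.8% to 52.0%) and 54.3% of AngII+HS LECs (46.6% to 61.9%). T and B cells, which should lack the gene, showed it in 0% and 0.585% of cells. Their median depth was 4172 UMIs in Control and 2523 in AngII+HS cells. *Ccl21a* was seen in 40.4% and 53.2% of LECs. Without thinning *Lyve1* was seen in 47.8% and 60% of LECs, so a cell with no UMI at this depth is not shown to lack the transcript.

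**Figure D1:**
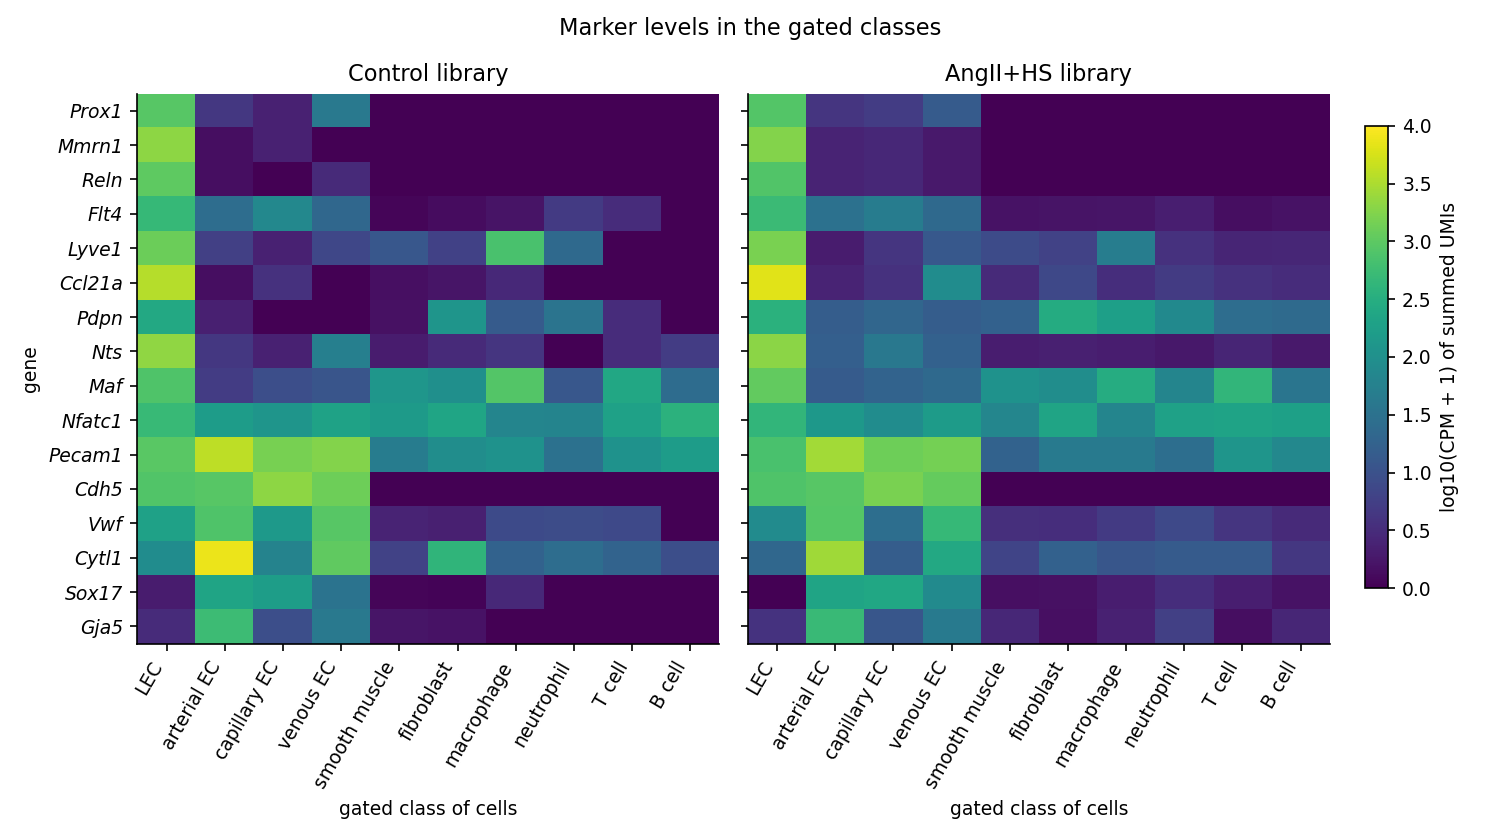
Heat map of marker levels by gated class of cells (columns) and gene (rows) in each library, colored by log10(CPM + 1). The LEC column is bright for the lymphatic genes and dark for *Sox17* and *Gja5*. The gates set *Prox1*, *Mmrn1*, *Reln* and *Cdh5* to 0 in the 6 classes that are not endothelial, while *Lyve1*, *Ccl21a*, *Pdpn*, *Nts*, *Maf*, *Nfatc1*, *Vwf*, *Cytl1*, *Sox17* and *Gja5* were not used to choose LECs. *Cytl1*, *Sox17* and *Gja5* helped to choose the arterial class.

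Against blood endothelial cells, 6114 genes had a mean of at least 20 CPM over both classes in each library. Of these, 327 (5.35%) were at least 2-fold higher and 305 (4.99%) at least 2-fold lower in LECs in both libraries. The gate genes are left out of the named genes. The genes that set LECs apart most were *Slc38a4*, *Ackr2*, *Lyve1*, *Ccl21a*, *Duox2*, *Pard6g*, *Slc45a3*, *Nts*, *Plce1*, *Pcsk6*, *Dtx1*, *Sema3d*, *Maf*, *Sh3gl3* and *Apba2*. *Slc38a4*, an amino acid transporter gene, stood at 67.8 and 156 CPM in LECs of the Control and AngII+HS libraries, and had 0 and 2 UMIs in blood endothelial cells. *Ackr2*, which encodes a decoy receptor that removes inflammatory CC chemokines, stood at 47.3 and 70.8 CPM in LECs and had 0 and 1 UMI in blood endothelial cells. *Nts*, encoding neurotensin, a peptide of nerve and gut cells that is also a known LEC transcript, stood at 2143 and 2008 CPM in LECs and at 9.6 and 23 CPM in blood endothelial cells. *Maf*, a transcription factor gene of lymphatic differentiation, stood at 799 and 1079 CPM in LECs and at 5.76 and 18.8 CPM in blood endothelial cells. *Duox2*, encoding a dual oxidase that makes hydrogen peroxide, stood at 126 and 50.1 CPM in LECs and below 1 CPM in blood endothelial cells.

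Blood endothelial cells were classed by the marker list with the most UMIs, at least 3. The arterial list was *Cytl1*, *Gja4*, *Gja5*, *Sox17* and *Bmx*, and the capillary list *Gpihbp1*, *Cd36*, *Car4* and *Rgcc*. The venous list was *Selp*, *Lrg1*, *Ackr1* and *Sele*. Levels of these genes by class were thus set in part by the rule. Of those measured, 5 of 5 arterial, 3 of 4 capillary and 0 of 3 venous genes were lower in LECs, against 4.99% of all genes. The 10 genes lowest in LECs included arterial and capillary ones. *Sox17*, a transcription factor gene of arterial endothelium, had 1 UMI in Control and 0 UMIs in AngII+HS LECs, against 179 and 173 CPM in blood endothelial cells. In the AngII+HS library it was at least 61.1-fold lower in LECs, with a floor of 3 UMIs over the LECs of the library. *Gja5*, which encodes the arterial gap junction protein connexin 40, had 2 and 3 UMIs in LECs against 360 and 165 CPM in blood endothelial cells. *Ccdc85a*, which in blood endothelial cells was highest in the capillary class (494 and 267 CPM), had no UMI in LECs of either library and was at least 33.2-fold lower in the Control and at least 34.3-fold lower in the AngII+HS library. *Ecrg4*, *Cxcl9*, *Adh7*, *Aqp7*, *Pcdh19* and *Sema3g* had between 0 and 6 UMIs in the LECs of a library. *Cytl1*, a secreted protein gene, stood at 86.3 and 20.8 CPM in LECs against 5044 and 882 CPM in blood endothelial cells. It was highest in the arterial class (7517 and 2699 CPM), which it helped to choose.

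Gene lists by role are read against the 5.35% of all genes that were higher and the 4.99% that were lower in LECs. Of 10 lymphatic identity transcription factor genes measured against blood endothelial cells, 4 were higher in LECs (*Nr2f2*, *Tbx1*, *Nfatc1* and *Maf*) and 1 was lower (*Sox18*). Of 7 lymphatic surface and secreted markers outside the gate, all 7 were higher. Of 20 endothelial identity genes, none was higher and 6 were lower, among them *Vwf*, *Cdh13* and *Esam*. *Nfat5*, the transcription factor gene of the response to hypertonic salt, stood at 2732 CPM in Control LECs and 1830 CPM in AngII+HS LECs, against 547 and 500 CPM in blood endothelial cells. *Il33* and *Il7*, cytokine genes, were also higher in LECs, with *Il33* at 203 and 225 CPM against 23.05 and 9.35 CPM. Of the AngII+HS *Il33* UMIs 73.5% lay in 22 cells described below, and the other AngII+HS LECs stood at 68.7 CPM. *Tgfbr2*, the type II receptor gene for TGF-beta, stood at 460 and 379 CPM against 126 and 142 CPM. *Cd36* and *Fabp4*, which serve fatty acid uptake in capillaries, were lower in LECs, with *Fabp4* at 2148 and 1875 CPM against 6465 and 11130 CPM.

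Between the conditions, 5837 genes had at least 50 UMIs over the LECs of both libraries. Of these, 385 (6.60%) were at least 2-fold higher and 145 (2.48%) at least 2-fold lower in AngII+HS LECs, and the median log2 ratio was 0.06. Among the 5008 genes above the free-RNA level the shares were 5.09% higher and 2.88% lower. In blood endothelial cells the shares of 11010 genes were 8.88% higher and 4.53% lower. Genes were named as the 10 highest and the 10 lowest ratios among those within the limits given in the section on processing. The 10 highest were *Stab2*, *Gpx3*, *Rsad2*, *Tnc*, *Prnp*, *Ptx3*, *Sdk1*, *C3*, *Ifit1* and *Cxcl10*. The 10 lowest were *Ackr4*, *Car8*, *F5*, *Cd36*, *Cytl1*, *Ptgs1*, *Cish*, *Fmo2*, *Selp* and *Sema4a*. With at least 11 gate UMIs, 255 (5.17%) of 4935 genes were past 2-fold higher and 115 (2.33%) lower, and 19 of the 20 named genes stayed past 2-fold, *F5* (-0.65) being the exception.

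*Tnc*, encoding tenascin-C, a matrix glycoprotein made in wounded and inflamed tissue, had 48 UMIs (49.3 CPM) in Control and 858 UMIs (810 CPM) in AngII+HS LECs, a log2 ratio of 4.02 (3.62 to 4.49). In blood endothelial cells its log2 ratio was 0.97. *Stab2*, encoding the scavenger receptor stabilin-2, which takes up hyaluronan, had 1 UMI in Control and 151 UMIs in AngII+HS LECs, a log2 ratio of 6.54 (4.62 to 12.4). In blood endothelial cells it had 3 and 36 UMIs. *C3*, the central complement component, stood at 18.5 and 192 CPM in LECs, a log2 ratio of 3.34 (2.68 to 4.16), and its log2 ratio in blood endothelial cells was 3.26. In thinned cells, *C3* was seen in 2.75% of Control LECs (0.571% to 7.83%) and 27.7% of AngII+HS LECs (21.2% to 35.1%). T and B cells, a measure of background, showed it in 0.690% and 8.86% of cells. Without thinning the shares of LECs were 9.73% and 41.6%. *Gpx3*, a secreted glutathione peroxidase gene, stood at 5.14 and 102 CPM. *Ptx3*, encoding the soluble pattern receptor pentraxin 3, stood at 7.19 and 89.7 CPM, and *Prnp*, encoding the prion protein, at 8.22 and 117 CPM. Fibroblasts of the AngII+HS library held *Gpx3* at 532 CPM, *Ptx3* at 281 CPM, *Prnp* at 217 CPM and *C3* at 1672 CPM, above the LEC levels. A single AngII+HS cell held 33.1% of the *Prnp* UMIs, and with at least 11 gate UMIs the log2 ratio of *Prnp* was 1.46 in place of 3.75. That of *Ptx3* was 3.55, and 1.997 in thinned cells.

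*Ackr4*, which encodes the atypical receptor that scavenges CCL19 and CCL21, had 93 UMIs (95.6 CPM) in Control and 14 UMIs (13.2 CPM) in AngII+HS LECs, a log2 ratio of -2.81 (-3.78 to -2.03). In thinned cells it was seen in 11% of Control LECs (5.82% to 18.4%) and 1.73% of AngII+HS LECs (0.359% to 4.98%), against 0% and 0.0836% of T and B cells, and without thinning in 29.2% and 5.26% of LECs. *Selp*, encoding P-selectin, on which leukocytes roll, stood at 1180 and 376 CPM, a log2 ratio of -1.65 (-1.82 to -1.48). LECs with at most 10 gate UMIs held 55.1% of its Control and 61.8% of its AngII+HS UMIs. The 4 Control cells at the threshold, whose gate UMIs were of *Prox1* alone, had between 23 and 72 *Selp* UMIs each. In LECs with at least 11 gate UMIs *Selp* stood at 668 and 199 CPM, a log2 ratio of -1.75, so the level was lower in both libraries and the ratio stayed past 2-fold. Over all blood endothelial cells it stood at 1256 and 1330 CPM, but it was lower in AngII+HS within the venous class (5053 and 3170 CPM) and the arterial class (870 and 631 CPM). Within the capillary class *Selp* was higher in AngII+HS, at 42.4 and 122 CPM. *Selp* is on the venous list that helped to choose these classes, so its levels by class were set in part by the rule. *Cd36* stood at 247 and 59.5 CPM in LECs. Over all blood endothelial cells *Cd36* stood at 971 and 1026 CPM, and within the capillary class, which it helped to choose, at 4234 and 2647 CPM. *Car8*, a carbonic anhydrase-related gene, stood at 252 and 42.5 CPM. *F5*, coagulation factor V, stood at 110 and 25.5 CPM, a call that ended with at least 11 gate UMIs, as given above. *Ptgs1*, encoding cyclooxygenase-1, stood at 127 and 31.2 CPM, and *Cish*, a feedback inhibitor gene of cytokine signaling, at 108 and 29.3 CPM. The *Cish* call ended in thinned cells, at a log2 ratio of -0.76. *Fmo2*, a monooxygenase gene, stood at 250 and 74.6 CPM, and its call ended without the upper limits of the gate, at -0.98. The pooled log2 ratios in blood endothelial cells were 0.08 for *Selp*, 0.08 for *Cd36*, -0.13 for *Ackr4*, -1.15 for *Cish* and -1.39 for *Ptgs1*. They were -1.60 for *Car8*, -2.52 for *Cytl1*, -0.57 for *F5*, -0.55 for *Fmo2* and -0.59 for *Sema4a*. They mix classes whose numbers differed between the libraries, with 422 and 340 arterial, 143 and 435 capillary and 90 and 333 venous cells. A single AngII+HS cell held 77.3% of the *Cytl1* UMIs, so the level of *Cytl1* rests on that cell.

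**Figure D2:**
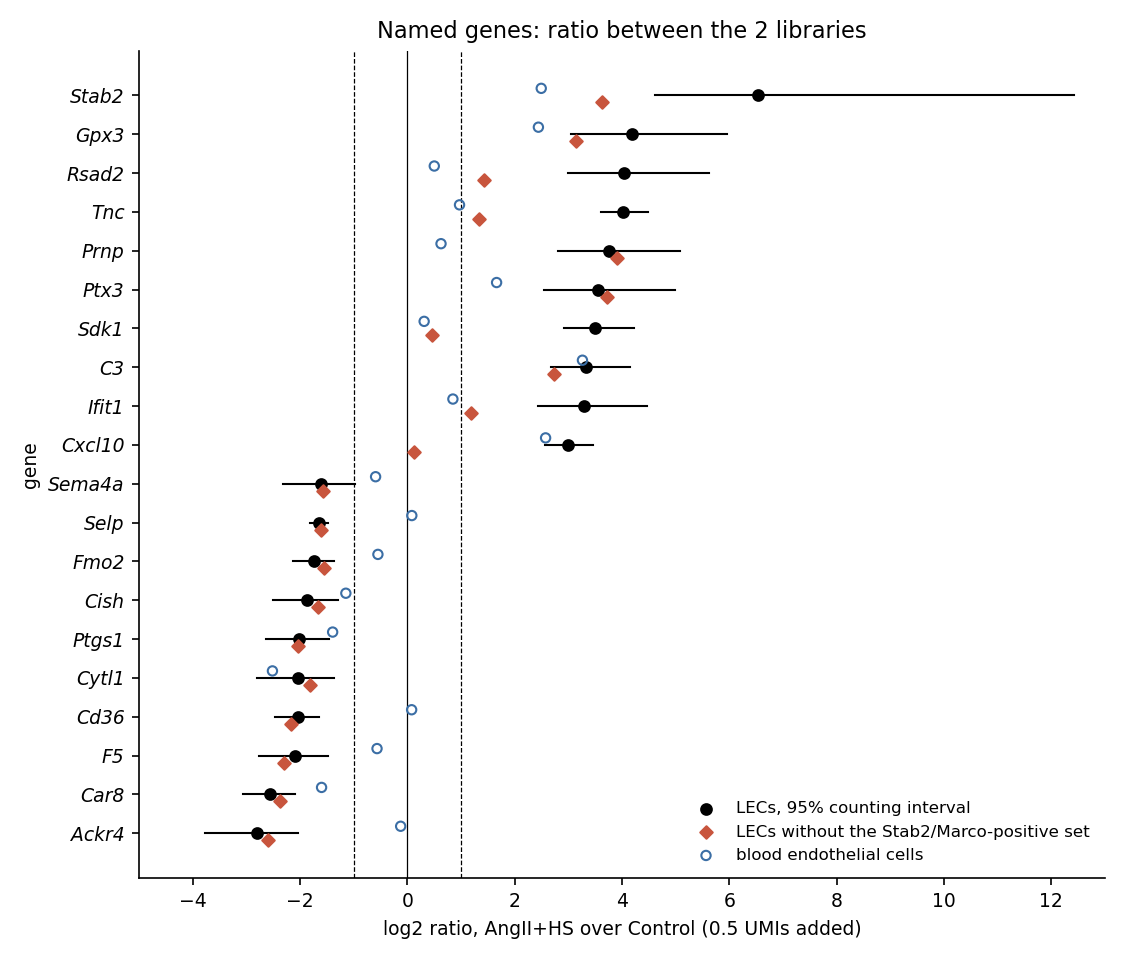
Log2 ratio of AngII+HS over Control (x axis) for the 20 named genes (y axis) in all LECs (black, bars are 95% counting intervals), in LECs without 22 cells that held *Marco*, *Itga2b*, *Stab2* or *Msr1* (red diamonds), and in blood endothelial cells (open circles). Dashed lines mark 2-fold. The 10 lower genes stay past 2-fold without those cells, while *Sdk1* and *Cxcl10* come to within 2-fold.

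*Stab2* UMIs gathered in a small set of AngII+HS cells, described here by a sum that includes *Stab2* itself. A UMI sum of at least 3 over *Marco*, *Itga2b*, *Stab2* and *Msr1* was found in 22 of 190 AngII+HS LECs (11.6%, 7.40% to 17.0%) and in 0 of 113 Control LECs, which allows a share of up to 2.65%, taken as 3 cells of the total. This set was picked with its values in view. *Marco* and *Msr1* encode class A scavenger receptors of macrophages, *Itga2b* encodes the platelet integrin subunit alpha IIb, and *Marco*, *Itga2b* and *Stab2* are also known from LECs of lymph node sinuses. In blood endothelial cells the sum reached 3 in 0 of 672 and 9 of 1185 cells (0.759%). Over all LECs, *Marco* had 0 and 96 UMIs and was at least 29.4-fold higher in the AngII+HS library, and *Msr1* had 0 and 86 UMIs and was at least 26.4-fold higher.

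The cells of the set had lymphatic endothelial transcripts. All 22 had *Prox1*, at 1164 CPM, and 21 of them had *Lyve1*, at 3549 CPM against 1289 CPM in the other AngII+HS LECs. *Mmrn1* was at 734 CPM against 1962 CPM, *Reln* at 325 against 905 CPM, *Pdpn* at 56.4 against 409 CPM, and *Ccl21a* at 600 against 7597 CPM, with its UMIs in 2 of the 22 cells. *Prox1*, *Mmrn1*, *Reln* and the low *C1qa* and *Ptprc* were part of the gate. Among macrophage genes that the gate did not limit, *Adgre1* stood at 14.1 CPM in the set and 404 CPM in macrophages of the same library, *Cd68* at 14.1 and 309 CPM, and *Lyz2*, which neutrophils share, at 536 and 4949 CPM, with its UMIs in 6 of the 22 cells. *Pf4*, a platelet gene that macrophages of this library held at 1507 CPM, had UMIs in 4 of the 22 cells. Most cells of the set thus combined *Lyve1* and *Prox1* with little *Ccl21a* and *Pdpn*. The set was not uniform. The 2 cells with *Ccl21a* entered it by *Msr1* alone (4 and 5 UMIs) and had 4 and 43 UMIs of the myeloid genes described last. Of the 22 cells, 5 also belonged to the LECs that hold myeloid genes, described last. Scrublet, which scores cells against simulated doublets, marked 9 of the 22 cells. It marked 42 of all 190 AngII+HS LECs and 1 of 113 Control LECs, and 19.6% and 9.03% of all cells of these libraries. The libraries also differed in B and T cells, as given above, and their part in this set was not tested.

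UMIs of several genes lay mainly in this set. *Tnc* stood at 5242 CPM in the set, 125 CPM in the other AngII+HS LECs and 49.3 CPM in Control LECs, and the set held 86.6% of its AngII+HS UMIs. *Sdk1*, an adhesion molecule gene, stood at 1834, 32.7 and 23.6 CPM. *Cxcl10*, a chemokine gene induced by interferon, stood at 2653, 54.5 and 50.3 CPM. *F8*, coagulation factor VIII, stood at 790, 52.3 and 28.8 CPM. *Il33*, a cytokine gene, stood at 1235, 68.7 and 203 CPM, against 225 CPM over all AngII+HS LECs, and without the set it was past 2-fold lower than in the Control, at a log2 ratio of -1.56. Without the set, 290 (5.22%) of 5553 genes were at least 2-fold higher and 134 (2.41%) lower, and 8 of the 10 named higher genes and all 10 named lower genes stayed past 2-fold, although *Stab2*, *Ifit1* and *Rsad2* then fell below the floor of 50 UMIs. The log2 ratio of the remaining LECs over Control was 0.46 for *Sdk1* and 0.11 for *Cxcl10*. It was 3.63 for *Stab2*, 1.19 for *Ifit1*, 1.34 for *Tnc*, 1.43 for *Rsad2*, 2.73 for *C3*, 3.13 for *Gpx3*, 3.73 for *Ptx3* and 3.91 for *Prnp*, while *Ackr4* stood at -2.60 and *Selp* at -1.60.

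**Figure D3:**
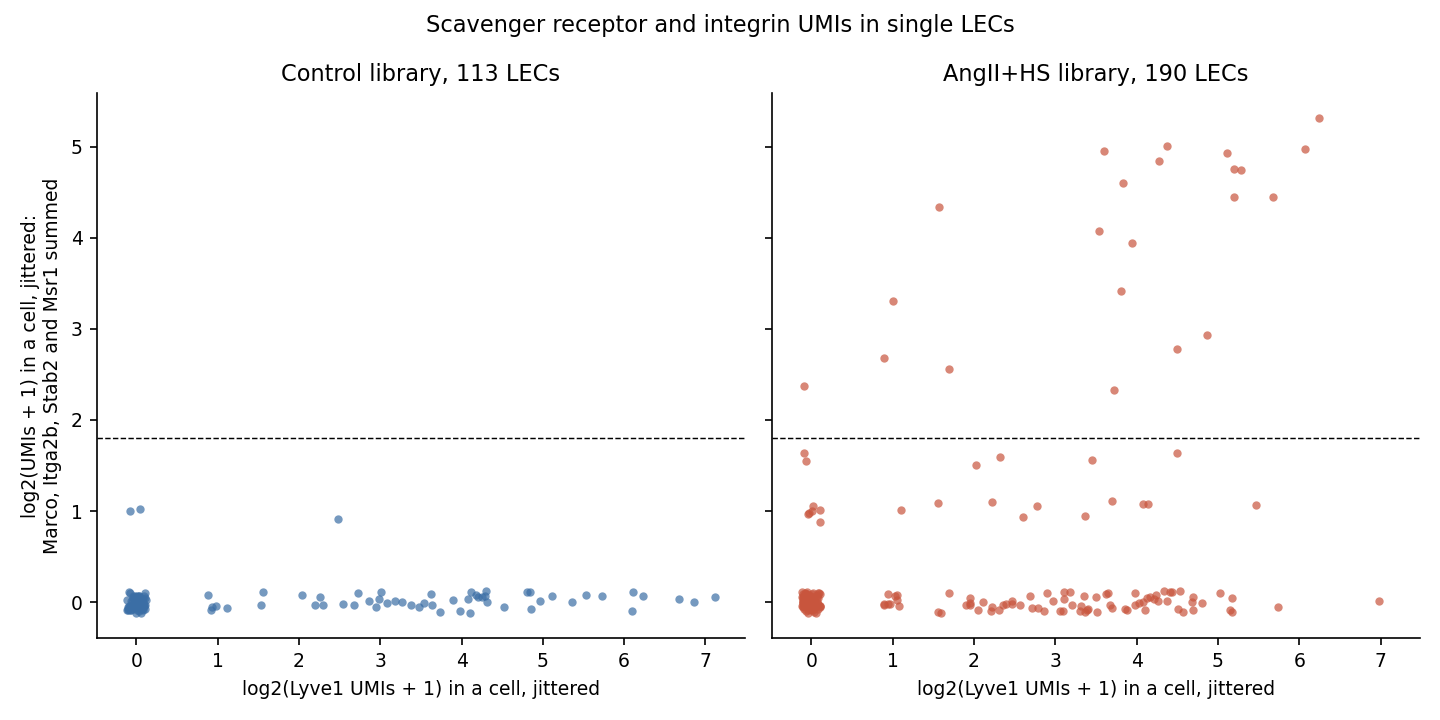
Each point is 1 LEC, with log2(UMIs + 1) of *Lyve1* on the x axis and of *Marco*, *Itga2b*, *Stab2* and *Msr1* summed on the y axis, jittered, for the 113 Control and 190 AngII+HS LECs. The dashed line marks the threshold of 3 UMIs. No Control LEC and 22 AngII+HS LECs lie above it, 21 of them with at least 1 *Lyve1* UMI.

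Interferon-stimulated genes passed 2-fold upward more often than the 6.60% of all genes. Of 19 measured genes, 7 were at least 2-fold higher in AngII+HS LECs (among them *Isg15*, *Ifit1*, *Rsad2*, *Ifi27l2a*, *Ifi44* and *Zbp1*), none was lower, and the median log2 ratio was 0.50, against 0.06 over all genes and 0.17 for the list in blood endothelial cells. *Isg15*, a ubiquitin-like modifier gene, stood at 104 and 401 CPM. *Ifit1*, which binds viral RNA, stood at 10.3 and 106 CPM, and *Rsad2*, encoding the antiviral enzyme viperin, at 6.16 and 110 CPM. Of the AngII+HS *Rsad2* UMIs 34.5% lay in a single cell. *Irf1* and *Stat2* were within 2-fold, at 384 and 329 CPM and at 75 and 63.3 CPM. Without the set above, 4 of 15 measured genes were past 2-fold and the median was 0.37. With at least 11 gate UMIs 3 of 14 were past 2-fold and the median was 0.23, with *Ifit1* (1.88) and *Rsad2* (1.67) under the floor of 50 UMIs. In the set itself *Isg15* stood at 1552 CPM and *Rsad2* at 705 CPM.

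Interferon signaling is known to act through a promoter element of its target genes. The letters of the interferon-stimulated response element, GAAA repeated after any 2 bases, were searched on both strands, overlaps included, in RefSeq promoter windows of GRCm38.p6 that run from 250 bases before to 50 bases after a gene start. It was found in 3.44% of 32851 promoters and in 13 of 21 interferon list genes with a window. Of the 7 list genes past 2-fold higher 4 had a window, and 3 of these held a match, while *Ifi44* did not. Windows around the matches are shown for the genes whose LEC ratios are discussed, 5′ to 3′ on the strand of the gene, with the matching bases in capitals.
*Isg15*, chr4:156200871-156200900, minus strand: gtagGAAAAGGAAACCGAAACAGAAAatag
*Ifit1*, chr19:34640785-34640813, plus strand: TTTCACTTTCcagtctcagTTTCAGTTTC
*Rsad2*, chr12:26456553-26456582, minus strand: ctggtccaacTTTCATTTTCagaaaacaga
*Cxcl10*, chr5:92349083-92349112, minus strand: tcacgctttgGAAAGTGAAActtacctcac
The *Isg15* window holds 3 overlapping matches, from 78 to 57 bases before the start. The 2 matches of *Ifit1* and the match of *Rsad2* read on the opposite strand, and that of *Cxcl10* lies 213 to 204 bases before the start. A match of letters is a description, and binding was not measured.

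Of 17 measured MHC class I genes, 2 were at least 2-fold higher, against 6.60% of all genes, *Psmb8* (48.3 and 98.2 CPM), an immunoproteasome subunit gene, and *Psme1* (68.8 and 161 CPM), a proteasome activator gene, and none was lower. Without the set *Psmb8* was at a log2 ratio of 0.90, under 2-fold. *H2-K1*, a class I heavy chain gene, stood at 1452 and 1887 CPM. All 4 measured class II genes were past 2-fold higher, against the same 6.60%, with *Cd74* at 62.7 and 223 CPM, but all were at the free-RNA level, and the list median of 1.66 was below that of blood endothelial cells, 2.58. After subtraction of the free-RNA level per cell the class II median was -5.65.

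Inflammatory and leukocyte traffic genes differed in both directions. *Ccl2*, which encodes the chemokine that draws CCR2-bearing monocytes, stood at 198 CPM in Control and 960 CPM in AngII+HS LECs, a log2 ratio of 2.27 (2.05 to 2.50). It was seen in 13.8% of Control (7.91% to 21.7%) and 40.5% of AngII+HS LECs (33.1% to 48.2%) after thinning, and in 2.76% and 21.9% of T and B cells. Without thinning the shares of LECs were 28.3% and 55.8%. *Ccl7*, a related monocyte chemokine gene, stood at 193 and 410 CPM. Of 26 measured NF-kB and inflammatory genes, 6 were past 2-fold higher, against 6.60% of all genes (*Tnfaip3*, *Ccl2*, *Ccl7*, *Cxcl2*, *Tnfsf10* and *C3*), *Tnfaip3* and *Cxcl2* of them at the free-RNA level, and 1, *Selp*, was lower, against 2.48%. Among LECs with at least 11 gate UMIs 3 of 24 were higher and 1 lower, with *Tnfaip3* at 0.86 and *Ccl7* at 0.71. Without the *Stab2* and *Marco* set 4 of 25 were higher and 2, *Selp* and *Il33*, lower, with *Tnfaip3* at 0.66. Without the LECs that hold myeloid genes, described last, only *Ccl2* (2.31) and *C3* (3.33) of 25 were past 2-fold higher, with *Cxcl2* at 0.77 and *Ccl7* at 0.97, and *Selp* and *Sele* (-1.31) were lower. The adhesion molecule genes *Icam1* (1718 and 1084 CPM), *Vcam1* (332 and 228 CPM) and *Sele* (158 and 79.3 CPM) were within 2-fold, below the Control value. In blood endothelial cells *Sele* stood at 104 and 278 CPM. Of 12 measured capillary LEC and traffic genes, *Jam3* and *Alcam* were past 2-fold higher, against 6.60% of all genes, *Alcam* at the free-RNA level, and *Jam3* (18.5 and 44.4 CPM) was also the 1 gene past 2-fold among 15 junction genes. Without the set *Jam3* had a log2 ratio of -0.48 and was under the floor of 50 UMIs, so that call rests on the 22 cells. Of the same traffic genes, *Ackr4* and *Selp* were past 2-fold lower, against 2.48% of all genes.

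The lists of lymphatic identity genes hold *Prox1*, *Mmrn1*, *Reln* or *Flt4*, which the gate used, so a likeness of these genes between the libraries was set in part by the rule. Counts of their members stand against 6.60% of all genes higher and 2.48% lower. Of 11 measured transcription factor genes none was past 2-fold higher and 1 was lower, *Foxc1*, at 137 and 58.6 CPM, while *Foxc2*, a gene of valve formation, stood at 53.4 and 78.4 CPM. No gene of 6 measured in the VEGF-C pathway passed 2-fold, with *Flt4* at 475 and 527 CPM and *Nrp2*, the VEGF-C co-receptor gene, at 605 and 731 CPM. *Vegfc* itself had 6 UMIs in each library's LECs. Of 11 surface and secreted markers, *Stab2* was higher and *Thy1* lower, at 244 and 121 CPM (a log2 ratio of -1.01, -0.82 without the set and -0.96 with at least 11 gate UMIs), and *Ccl21a*, at a log2 ratio of 0.92 (0.86 to 0.98), stayed under 2-fold over all LECs but was past 2-fold higher without the set, at 1.11 (1.05 to 1.17). Of 12 measured valve and collecting vessel genes, *Neo1*, a netrin receptor gene, was past 2-fold higher at 13.4 and 45.3 CPM, and *Gja1*, the connexin 43 gene, stood at 596 and 312 CPM, under 2-fold. In blood endothelial cells *Gja1* stood at 101 and 241 CPM.

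Of 21 measured endothelial identity genes, which include the gate genes *Pecam1* and *Cdh5*, none was past 2-fold higher, against 6.60% of all genes, and 3 were lower, against 2.48%: *Vwf* (194 and 83.1 CPM), *Cdh13* (401 and 179 CPM) and *Tal1* (214 and 93.5 CPM). The list median was -0.40, against -0.28 in blood endothelial cells, and without the set *Cdh13* was at -0.96, under 2-fold. With at least 11 gate UMIs these 3 genes stayed past 2-fold, with *Vwf* at 98.6 and 32.7 CPM. *Egfl7*, a secreted factor gene of endothelium, then came past 2-fold higher at 1.10 (0.96 over all LECs), and the list median was -0.08. Of 14 flow and nitric oxide genes 2 were past 2-fold lower, against 2.48% of all genes. These were *Cav1*, encoding the caveolar coat protein (937 and 450 CPM), and *Gucy1a1*, encoding a subunit of the nitric oxide receptor (88.4 and 40.6 CPM). Without the set both were under 2-fold, at -0.88 and -0.91, and with at least 11 gate UMIs *Cav1* was, at -0.91. *Smad7*, the inhibitor gene of TGF-beta signaling (376 and 151 CPM), was the 1 gene of 20 in its list past 2-fold lower, against the same 2.48%, and *Plpp3*, a lipid phosphatase gene that acts on sphingosine-1-phosphate (248 and 101 CPM), the 1 of 6 in its own, though at -0.82 with at least 11 gate UMIs. No gene of the angiopoietin and Tie list passed 2-fold, with *Tek*, encoding the angiopoietin receptor TIE2, at 207 and 106 CPM. The same held for the 7 measured Notch genes. The 20 immediate early genes, which rise during tissue digestion, had a median of -0.30, none past 2-fold, with *Fos* at 3544 and 2852 CPM.

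Of 16 measured genes of the mTOR, endocytosis and scavenging list, 7 were past 2-fold higher, against 6.60% of all genes. These were *Stab2*, *Mrc1*, *Cd63*, *Ctsb*, *Ctsd*, *Ctsl* and *Lgmn*, with *Ctsd* at the free-RNA level. None was lower, and the list median was 0.75, against 0.47 in blood endothelial cells. *Lgmn*, encoding the lysosomal protease legumain, stood at 162 and 565 CPM, *Ctsl*, cathepsin L, at 263 and 588 CPM, and *Mrc1*, the mannose receptor gene that lymphatic vessels share with macrophages, at 30.8 and 70.8 CPM. Without the *Stab2* and *Marco* set only *Lgmn*, at 1.49, of 15 measured genes was past 2-fold and the median was 0.52. In LECs with at least 11 gate UMIs 3 of 15, *Stab2*, *Ctsl* and *Lgmn*, were past 2-fold.

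Of 19 matrix genes 5 were past 2-fold higher, against 6.60% of all genes, *Fn1* and *Mgp* of them at the free-RNA level. The other 3 were *Col4a2*, a basement membrane collagen gene (113 and 273 CPM), *Sparc*, a collagen-binding protein gene (197 and 771 CPM), and *Emilin1*, encoding an elastic fiber protein that anchors LECs (42.1 and 95.4 CPM), which was under 2-fold at 0.91 without the set. With at least 11 gate UMIs 3 of 19 matrix genes were past 2-fold higher, with *Fn1* at 0.71 and *Mgp* at 0.999. Without the LECs that hold myeloid genes *Fn1* was at 0.86. Of 12 genes tied to endothelial-to-mesenchymal transition (EndMT), 7 were past 2-fold higher, against the same 6.60%, among them *Col1a1*, *Col3a1* and *S100a4*, and all 7 were at the free-RNA level. The 3 members above that level were *Snai1* (124 and 69.0 CPM), *Zeb1* (434 and 381 CPM) and *Vim* (1425 and 1351 CPM), none past 2-fold. With at least 11 gate UMIs 5 of 12 EndMT genes were past 2-fold higher, with *Dcn* at 0.73 and *Fn1* at 0.71. Without the LECs that hold myeloid genes 6 of 12 were. The EndMT median was 1.09, and 0.41 after subtraction of the free-RNA level.

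Receptors for the infused hormone were hardly counted. *Agtr1a*, the type 1 angiotensin receptor gene, had 0 UMIs in Control and 1 UMI in AngII+HS LECs, and *Agtr1b* and *Agtr2* had none. No gene of 11 measured in the angiotensin, corticosteroid and salt list passed 2-fold. *Nr3c2*, the mineralocorticoid receptor gene, stood at 289 and 252 CPM and *Sgk1*, its target gene, at 473 and 503 CPM. Of 13 fatty acid genes *Cd36* was past 2-fold lower, against 2.48% of all genes, and *Fabp5* and *Plin2* were higher at the free-RNA level, as were *Gapdh* and *Eno1* of 12 glycolysis genes, against 6.60% of all genes. Among cell cycle genes *Mki67* had 3 and 22 UMIs and *Top2a* 3 and 45 UMIs, both under the floor of 50 UMIs.

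**Figure D4:**
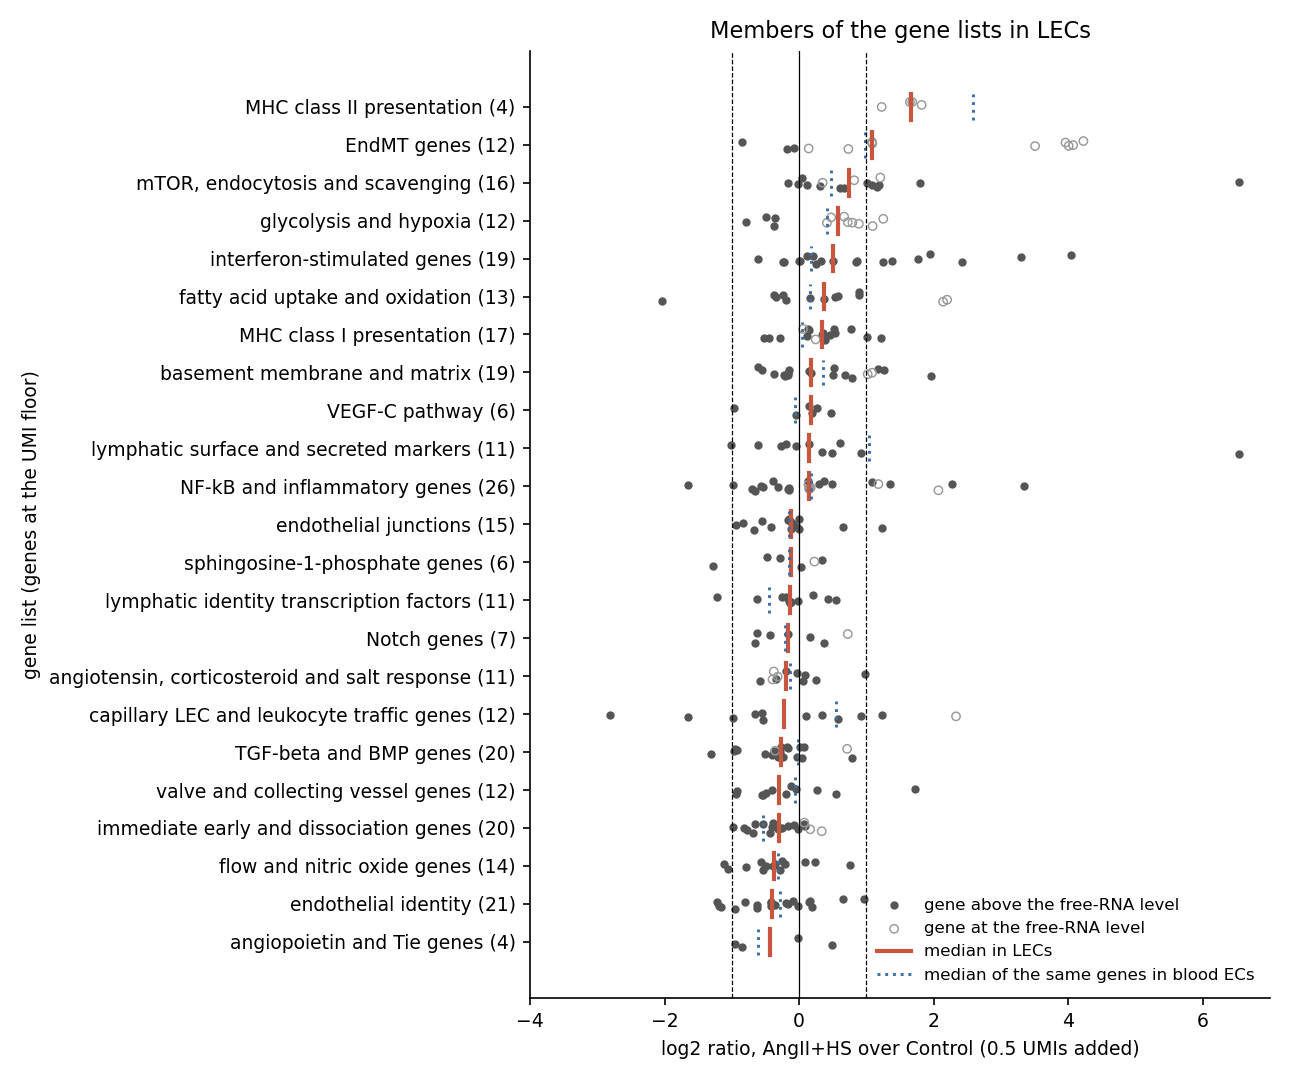
Each point is a gene with at least 50 UMIs over the LECs of both libraries, at its log2 ratio of AngII+HS over Control (x axis), by gene list (y axis, with the number of genes). Filled points are above and open points at the free-RNA level, red lines are list medians in LECs, dotted blue lines the medians of the same genes in blood endothelial cells, and dashed lines mark 2-fold. The list of mTOR, endocytosis and scavenging genes and the interferon list lie to the right with filled points. The right side of the EndMT and MHC class II lists is made of open points.

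LECs ranged from *Lyve1*-high to *Lyve1*-zero cells. With each cell thinned to 2000 UMIs, which left out 4 Control and 17 AngII+HS LECs, 40 of 109 Control LECs had at least 2 *Lyve1* UMIs (36.7%, 27.7% to 46.5%) and 63 had none. In the AngII+HS library 78 of 173 LECs were *Lyve1*-high (45.1%, 37.5% to 52.8%) and 79 had none. The intervals overlapped. With at least 11 gate UMIs the shares in the same thinned counts were 48.1% (37 of 77 LECs) and 48.8% (60 of 123 LECs). A single *Lyve1* UMI was found in 6 and 16 cells, so the cells near the divide were few. Of the *Stab2* and *Marco* set, 18 cells were *Lyve1*-high, and 60 of the 151 other AngII+HS LECs were. These are ranges of a count and not cell types.

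In both libraries *Lyve1*-high cells had more *Ccl21a*, with 11311 CPM against 31.6 CPM in *Lyve1*-zero Control LECs and 9921 against 2709 CPM in AngII+HS LECs. *Reln*, a gate gene, stood at 2748 against 161 CPM in the Control and 1181 against 433 CPM in the AngII+HS library. *Piezo2*, a mechanosensitive ion channel gene, stood at 782 against 6.65 CPM and at 241 against 35.0 CPM. *Slco2b1*, *Lepr*, *Cyp4b1*, *Ackr2*, *Stmn2*, *Slc38a4* and *Dapk2* also led the *Lyve1*-high side, *Lepr*, the leptin receptor gene, with 191 against 18.3 CPM and 113 against 3.89 CPM.

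The *Lyve1*-zero side was led by *Car8*, *Vwf*, *Bmp4*, *Tmem158*, *Sele*, *Csf3*, *Ccdc3* and *Epha4*. *Vwf*, von Willebrand factor, stood at 308 CPM in *Lyve1*-zero against 3.54 CPM in *Lyve1*-high Control LECs and at 161 against 9.45 CPM in AngII+HS LECs. With at least 11 gate UMIs *Vwf* stood at 178 CPM in Control and 72.0 CPM in AngII+HS *Lyve1*-zero LECs. *Csf3*, the granulocyte growth factor gene, stood at 422 against 21.2 CPM and at 593 against 80.3 CPM. *Sele* stood at 256 against 0 CPM and at 144 against 16.5 CPM. *Foxc2* and *Gata2*, which act in lymphatic valves, were also higher in *Lyve1*-zero cells, at 66.5 against 17.7 CPM and 141 against 31.8 CPM in the Control, and 117 against 35.4 CPM and 124 against 59.1 CPM in the AngII+HS library. Of the 10 named genes that were lower in AngII+HS LECs, 9 had a higher level in *Lyve1*-zero than in *Lyve1*-high Control LECs, and *Sema4a* did not. Of all 5837 genes measured, 44.9% were higher in *Lyve1*-zero Control LECs. *Cd36* was nearly level, at 248 against 219 CPM. *Ackr4* had 90 UMIs in *Lyve1*-zero and 0 in *Lyve1*-high Control LECs, and 12 and 2 UMIs in the AngII+HS library. *Selp* stood at 1894 against 17.7 CPM in the Control and 626 against 165 CPM in the AngII+HS library. With at least 11 gate UMIs *Selp* stood at 1201 CPM in Control and 313 CPM in AngII+HS *Lyve1*-zero LECs.

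The ends of the range lay closer together in the AngII+HS library for several genes. In *Lyve1*-zero LECs *Ccl21a* stood at 31.6 CPM in the Control and 2709 CPM in the AngII+HS library, a log2 ratio of 6.38 (5.77 to 7.16), while in *Lyve1*-high LECs it was -0.19 (-0.26 to -0.12). Without the *Stab2* and *Marco* set the ratios were 6.41 (5.80 to 7.18) and 0.26 (0.19 to 0.33), so the direction in *Lyve1*-high LECs turned. The ranges were set on thinned counts while levels use all UMIs, so *Lyve1*-zero LECs held some *Lyve1*. Without the set it stood there at 13.3 CPM in the Control and 61.8 CPM in the AngII+HS library. With at least 11 gate UMIs *Ccl21a* stood at 45.0 and 3265 CPM in 36 and 48 *Lyve1*-zero LECs, a log2 ratio of 6.14 (5.53 to 6.92). *Reln*, a gate gene whose level was set in part by the rule, stood at 161 and 433 CPM in *Lyve1*-zero LECs. *Piezo2* stood at 6.65 and 35.0 CPM in the same cells. With at least 11 gate UMIs *Reln* stood there at 218 and 532 CPM, while *Piezo2* stood at 9.47 and 9.39 CPM, so its difference rested on the cells nearer the threshold. *Cxcl2*, a neutrophil chemokine gene, stood at 21.2 CPM in Control and 1165 CPM in AngII+HS *Lyve1*-high LECs. It was at the free-RNA level over all LECs, and without the LECs that hold myeloid genes, described last, it stood at 568 CPM in AngII+HS *Lyve1*-high LECs. *Ccl2* was higher at both ends, at 106 and 713 CPM in *Lyve1*-high and 261 and 1236 CPM in *Lyve1*-zero LECs. Some values of the AngII+HS *Lyve1*-high cells rested on the *Stab2* and *Marco* set. Without it *Vcam1* stood at 41.9 CPM in place of 213 CPM, *Selp* at 99.9 in place of 165 CPM, *Csf3* at 25.8 in place of 80.3 CPM and *Lepr* at 58.0 in place of 113 CPM, and these 4 genes kept their order against *Lyve1*-zero cells. *Cyp4b1* stood at 38.7 in place of 198 CPM, also above *Lyve1*-zero cells. The order turned for *Cxcl10*, from a log2 ratio of *Lyve1*-high over *Lyve1*-zero of 2.35 to -2.57, for *Rsad2*, from 0.46 to -1.74, for *Ifit1*, from 1.82 to -0.80, and for *Sdk1*, from 3.78 to -0.07. For *Pdpn* and *Sema4a* it turned too, with ratios between -0.26 and 0.46. The median depth was 5337 and 4374.5 UMIs in *Lyve1*-high LECs of Control and AngII+HS, and 7442 and 5290 UMIs in *Lyve1*-zero LECs.

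**Figure D5:**
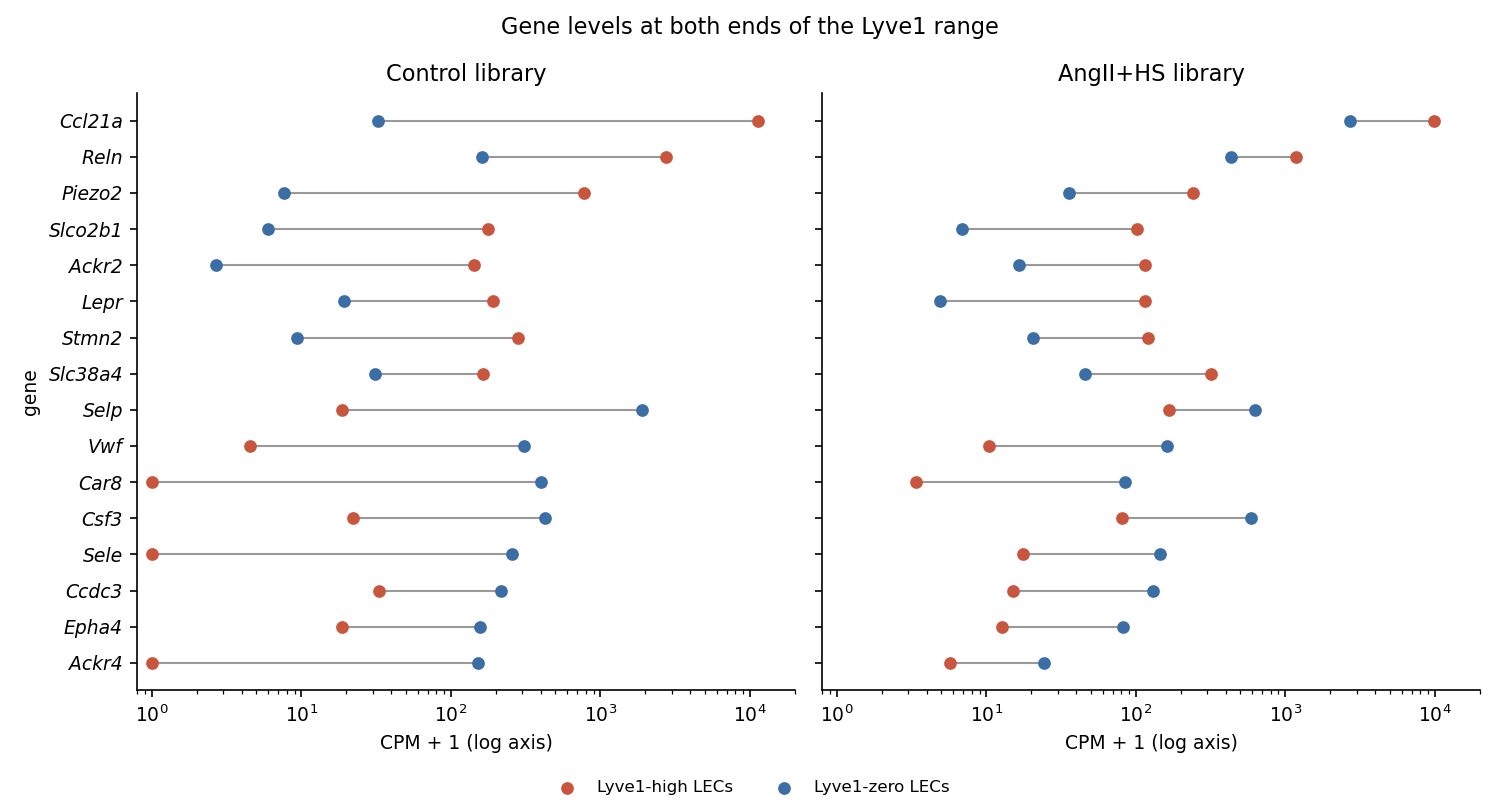
CPM + 1 (log axis) of 16 genes (y axis) in *Lyve1*-high LECs (red) and *Lyve1*-zero LECs (blue) of each library. The order of the 2 ends is the same in both libraries for all genes shown, and the gap for *Ccl21a*, *Reln*, *Piezo2* and *Selp* is smaller in the AngII+HS library. *Reln* is a gate gene, so its levels were set in part by the rule.

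Markers of other cell types were more frequent in AngII+HS LECs. The 4 neutrophil genes summed to 6.16 CPM in Control and 615 CPM in AngII+HS LECs, led by *S100a9*, and to 10.4 and 587 CPM in blood endothelial cells. The 7 macrophage genes summed to 9.25 and 239 CPM, led by *Lyz2*, with *C1qa*, *C1qb* and *Adgre1* at 0 in the Control, though the gate itself limits the C1q genes, as it limits *Dcn* and *Myh11*. The 5 fibroblast genes summed to 82.2 and 674 CPM, led by *Col1a1*, with *Pdgfra* at 0 in the Control and at 4 UMIs in the AngII+HS library. The 4 platelet genes summed to 14.4 and 296 CPM, led by *Pf4* and counting *Itga2b*, and the 4 erythroid genes to 18.5 and 140 CPM. The 3 T cell genes summed to 0 and 1.89 CPM, the 4 B cell genes to 2.05 and 11.3 CPM, and the 5 smooth muscle genes to 416 and 494 CPM, with none of these 5 at 0. Mesothelial genes had no UMI.

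A UMI sum of at least 3 over the myeloid genes *Tyrobp*, *Fcer1g*, *Clec4d* and *Csf3r* was found in 1 of 113 Control and 19 of 190 AngII+HS LECs (10.0%), 17 of which Scrublet marked, and in 9.96% of the AngII+HS blood endothelial cells. Without these cells, 308 (5.53%) of 5570 genes were at least 2-fold higher and 129 (2.32%) lower, and all 20 named genes stayed past 2-fold, while the neutrophil sum in AngII+HS LECs was 155 CPM. The part of other cells' RNA in the genes at the free-RNA level was not tested further.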

How the data were processed

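Single-cell suspensions of suprarenal aorta were sequenced on the 10x platform, 1 library per condition. The authors aligned and counted the reads with Cell Ranger, per the file headers version 8.0.1 (7.0 in the methods), and the deposited values are raw UMI counts per gene and barcode. The labels name mm10 and the methods GRCm39, and no coordinate of the reads was used. Cells needed at least 500 UMIs, 200 genes and under 20% mitochondrial UMIs. LECs also had at most 2 UMIs of *C1qa*, *C1qb* and *C1qc*, 1 of *Ptprc*, 5 of *Dcn* and 2 of *Myh11*, limits that removed 29 Control and 53 AngII+HS cells. Each of the other 6 gated classes required 0 lymphatic and *Cdh5* UMIs. Counts were summed per class and library with Python 3.11.15, numpy 2.4.6 and pandas 2.3.3. Ratios have exact conditional binomial intervals and shares Clopper-Pearson intervals (scipy 1.17.1), and the ratios were tested on simulated data. No significance test was run.

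Doublets were held down by the gate alone. Scrublet (scanpy 1.11.5) at 0.8% per 1000 cells served as an alternative, as did TMM factors (edgeR 4.0.16, R 4.3.3). Named genes between conditions were the 10 highest and 10 lowest ratios among genes with at least 100 UMIs, found in 10% of the LECs of a library and above the free-RNA level. Those against blood endothelial cells were the 15 highest and 10 lowest by the smaller of the libraries' ratios, and those along *Lyve1* the 8 at each end with at least 40 UMIs in each library. Members and gene lists were chosen with earlier results of these data known.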

Additional observations from a re-analysis of the deposited data

Results flagged for a closer look

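For 6 genes the libraries differed past 2-fold one way in LECs and the other way in pooled blood endothelial cells, and with 1 library per condition the difference was not tested. *Clu*, encoding the secreted chaperone clusterin, had a log2 ratio of AngII+HS over Control of 2.15 in LECs (92.5 and 413 CPM) and -1.09 in blood endothelial cells. *Mt1*, a metallothionein gene at the free-RNA level, had 1.42 in LECs and -1.48 in blood endothelial cells. *Ptprj*, a receptor phosphatase gene that was also at the free-RNA level, had 1.24 and -2.05. *Zfp462*, a zinc finger protein gene, had -1.33 in LECs (86.3 and 34 CPM) and 1.45 in blood endothelial cells. *Tll1*, a metalloprotease gene, had -1.16 in LECs (466 and 208 CPM) and 1.15 in blood endothelial cells. *Arhgap26*, encoding a GTPase-activating protein, had -1.04 in LECs (218 and 106 CPM) and 1.07 in blood endothelial cells. The makeup of the blood endothelial cells differed between the libraries, with 422 and 340 arterial, 143 and 435 capillary and 90 and 333 venous cells. In the venous class, where they were highest, *Tll1* stood at 570 and 523 CPM, *Zfp462* at 118 and 126 CPM and *Arhgap26* at 361 and 379 CPM, so the pooled direction was not seen at 2-fold within that class. In the arterial class, where they were highest in the Control library, *Ptprj* stood at 1531 and 641 CPM and *Mt1* at 1380 and 397 CPM. Both were past 2-fold in the pooled direction. *Clu* stood there at 2120 and 1659 CPM, under 2-fold. In the capillary class *Mt1* (264 and 406 CPM) and *Clu* (60.2 and 111 CPM) were higher in AngII+HS, and *Ptprj* (62.9 and 53.1 CPM) was lower.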

How the results depend on the processing

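Without upper limits on C1q, *Ptprc*, *Dcn* and *Myh11*, LECs were 1.26% of Control and 0.989% of AngII+HS cells and 17.4% and 17.0% of endothelial cells, 640 genes were past 2-fold higher, and the medians were 0.13 for traffic, -0.44 for immediate early and 0.39 for NF-kB genes. With cells thinned to 2000 UMIs, LECs were 1.02% of AngII+HS cells, 121 genes were higher and 74 lower, and the medians were 1.58 for EndMT and -0.17 for immediate early genes. A blood endothelial gate of 6 UMIs gave LECs 16.8% of AngII+HS endothelial cells. The *Lyve1*-high share of AngII+HS LECs was 54.3% at 1 UMI and 53.7% without thinning. With no floor on UMIs 4368 genes were higher and 2189 lower, and with a floor of 200 UMIs 91 and 52. A floor of 5 CPM gave 533 genes higher and 570 lower in LECs than in blood endothelial cells. The immediate early median was -0.42 with TMM factors and -0.39 without the *Stab2* and *Marco* set. With a lymphatic gate of at least 11 UMIs, LECs were 0.691% of Control and 0.529% of AngII+HS cells and 10.4% and 9.89% of endothelial cells, the *Lyve1*-high share of Control LECs was 50.6% with these cells thinned anew and 48.1% in the counts thinned for all LECs, 255 genes were higher, and the medians were 0.72 for EndMT and -0.19 for immediate early genes. With free RNA subtracted the medians were -5.65 for MHC class II (reversed, though not the size of a fall, as given above), 0.41 for EndMT and -0.078 for glycolysis genes. The cause of these differences was not tested. For the 20 named genes, 27 values moved by more than their counting interval, 233 did not and none reversed. Calls past 2-fold ended for *Cish* (-0.76 with thinned cells), *Fmo2* (-0.98 without upper limits), *F5* (-0.65 with 11 UMIs), *Sdk1* (0.46) and *Cxcl10* (0.11, both without the set).

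The alternatives with 11 UMIs, without the *Stab2* and *Marco* set and without the cells holding myeloid genes were chosen after seeing the data. No paired analysis was possible because each condition has 1 library and no result comes from a test. Leaving out a replicate was not possible for the same reason. Depth limits genes under the floor of 50 UMIs, where 3 UMIs over a library's LECs is 3.08 CPM in the Control and 2.83 CPM in the AngII+HS library.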
